A study of Zea mays with 12 samples.

Results

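Gene expression in the endosperm of the inbred maize lines B73 and Mo17 was compared at 19 days after pollination, using the 3 arrays of B73 and the 3 arrays of Mo17 among the 12 arrays of the study. The other 6 arrays held the reciprocal hybrids of both lines and entered only an alternative fit. Both inbred groups were made by crossing field-grown plants within their line, on 3 dates. Each array held RNA from a single pool of 36 endosperms, 6 from each of 6 ears, hybridised to an Affymetrix maize array of a single colour. Neither line carried a named mutation or treatment. Arrays with the same number shared a crossing date, and values are listed here in the order of dates 1, 2 and 3. Each sample was therefore a pool of ears from a single date, and the p-values rest on the spread among those pools.

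Endosperm is the storage tissue of the kernel. Its starchy cells build up starch and zeins, the prolamin storage proteins of maize, whose genes are switched on by transcription factors such as opaque2 and the prolamin-box binding factor. An outer aleurone layer surrounds the starchy cells, a transfer cell layer at the base takes up sugar from the mother plant, and a small region surrounds the embryo. Incoming sucrose is split by invertase or sucrose synthase, carried forward as hexose phosphates and ADP-glucose, and built into starch inside amyloplasts. B73 and Mo17 are parents of a widely grown hybrid and are known to differ greatly in genome sequence.

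The values are signals of probe sets, groups of short probes against 1 transcript stretch, scaled so that the 6 arrays shared a trimmed mean of 361.3. Before that scaling the trimmed means ran from 299.7 to 451.6, with array 1 the dimmest in both lines. Across probe sets, log2 signals of arrays of the same line correlated at 0.982 to 0.992 and arrays of different lines at 0.868 to 0.877, as a description over probe sets that are not independent. The probe set at the 3′ end of the actin control was 2.42 to 3.04 times as bright as that at the 5′ end in the 6 arrays, a ratio that rises as RNA is degraded. The same ratio for a pair of GAPDH control probe sets was 0.952 to 1.15 in B73 and 1.08 to 1.21 in Mo17. For another GAPDH pair it was 0.0309 to 0.141 in B73 and 0.321 to 3.17 in Mo17, so that the lines did not overlap, with scaled signals of 0.738 to 23.9, all dimmer than the array medians of 76.5 to 89.2. The part of RNA quality in the results was not tested. Precision was limited by the number of arrays: the standard error of the log2 difference had a median of 0.14.

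The defining genes of starchy endosperm were bright: gz50, a gamma zein gene, had signals of 16691, 15095 and 15162 in B73 and 14598, 10743 and 10785 in Mo17, far above the signals of most probe sets. Each marker gene of other tissues and layers was dimmer than gz50 in every array. The summed signals of these markers did not all stand at the same level in both lines. The summed signal of 7 embryo genes was 524 to 1095 in B73 and 1562 to 1871 in Mo17, with glb2, emb5, rab17 and vp1 too dim to be tested. This sum did not include glb3, a globulin gene by name. That gene was brighter than the whole sum in every array and was called toward B73. For 11 genes of the transfer cell layer the summed signal was 2345 to 3343 in B73 and 7514 to 10352 in Mo17, and for 2 genes of the embryo-surrounding region 65.1 to 71.9 and 87.7 to 230.4. For 4 aleurone genes the sums were 1212 to 3279.9 in B73 and 1917 to 2125 in Mo17, where the highest value was B73 array 1. For 11 green tissue genes the sums were 216 to 277 in B73 and 163 to 237 in Mo17, with lhcb6 at 65.2 to 102 in the 6 arrays and psbs1, Cab-m7 and pep1 at or under 9.75 in all of them. The green tissue gene psah1 had 58.4 to 85 in B73 and 20.7 to 40.7 in Mo17 and was called toward B73 (log2 difference 0.99, adjusted p = 0.00699). How much of each layer a pool held and how much RNA its cells made cannot be told apart in such samples. The part these layers play in the results that follow was not tested.

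**Figure D1:**
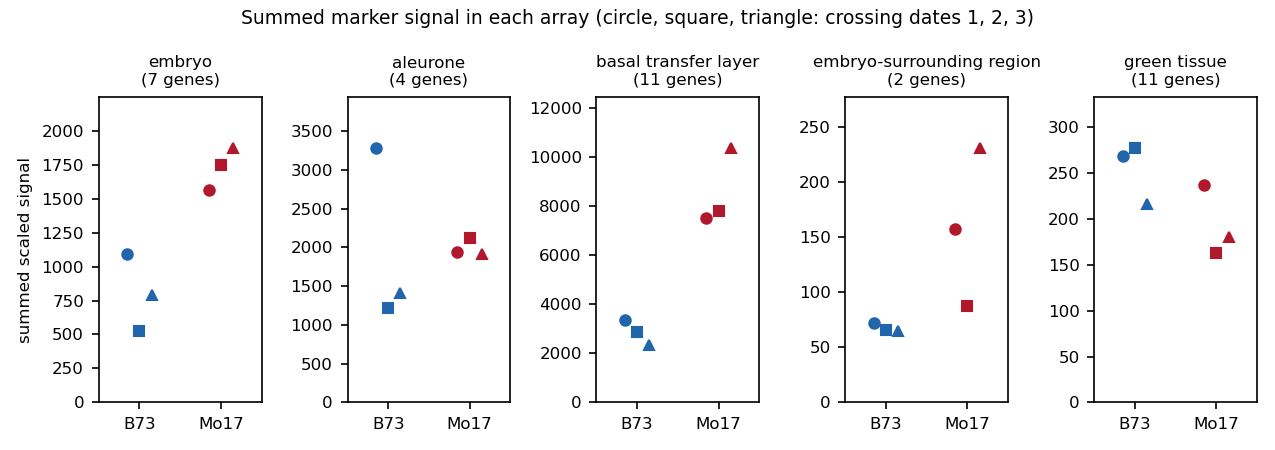
Summed scaled signal (vertical axis, arbitrary units) of marker genes of 5 tissues or layers in the 3 B73 arrays (blue) and the 3 Mo17 arrays (red), 1 symbol per crossing date. The embryo, transfer layer and embryo-surrounding sums were higher in all Mo17 arrays than in any B73 array, and the aleurone sum of B73 array 1 (3279.9) stood above the other 5. The embryo sum did not include glb3, which was higher in B73.

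The line difference was broad and mostly small. Of 11747 probe sets tested with limma, 5730 (48.8%) differed between the lines at an adjusted p under 0.05, called here. Of these, 2802 (23.9% of those tested) were higher in B73 and 2928 (24.9%) in Mo17. Differences of at least 2-fold were found in 1942 of the called probe sets (16.5% of those tested), 1056 higher in B73 (8.99%) and 886 in Mo17 (7.54%). The median size of a called difference was 0.745 on the log2 scale, against 0.373 over all probe sets tested. Of the 5730, 5706 (99.6%) had the same direction on all 3 crossing dates. The 3 arrays of a line lay wholly above the 3 of the other line for 6802 probe sets (57.9%), with B73 above in 28.1% and Mo17 above in 29.8%.

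The balance between the lines shifted with the size of the difference. Among called differences under 2-fold, 46.1% of 3788 were higher in B73. The share was 52.4% of 1313 between 2-fold and 4-fold, 57.2% of 374 between 4-fold and 8-fold, and 57.9% of 152 between 8-fold and 16-fold. Of the 103 differences of 16-fold or more, 66 were higher in B73 and 37 in Mo17, which is 64.1%. These shares are descriptions and were not tested against each other. Without any scaling the split between the lines was different: 4337 probe sets were called, 1427 (32.9%) higher in B73 and 2910 in Mo17, and the median over all probe sets tested was -0.22 in place of -0.0077 on the log2 scale. Differences toward B73 are therefore relative to the scaling, and the counts for the values as deposited are given beside many of the families below. Of 172 called genes named here, 39 were not called in the values as deposited, and 0 turned direction under any alternative other than the choice of probe set.

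**Figure D2:**
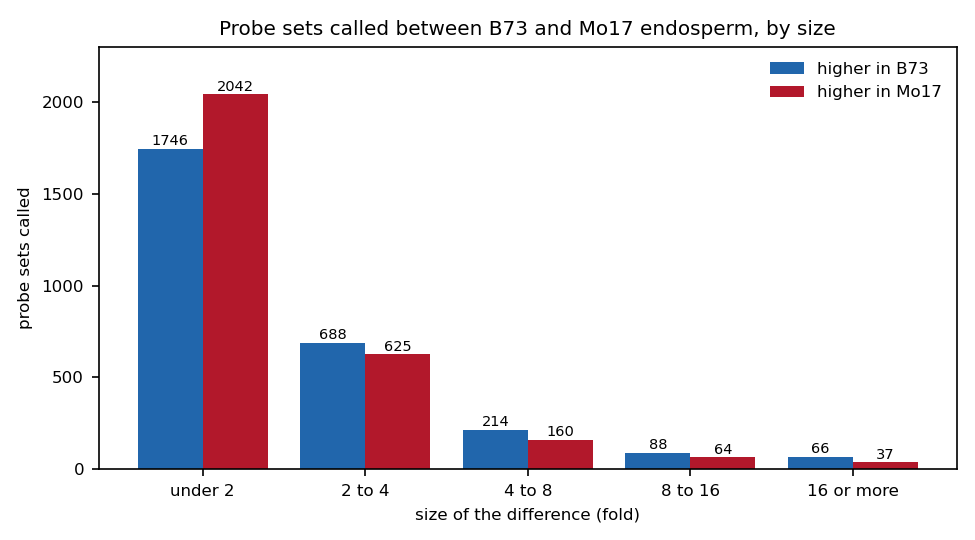
Number of probe sets called between B73 and Mo17 endosperm (vertical axis) by size of the difference in fold (horizontal axis), for probe sets higher in B73 (blue) and higher in Mo17 (red). Mo17 leads among differences under 2-fold (2042 against 1746) and B73 among those of 16-fold or more (66 against 37).

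Bright and dim probe sets did not differ alike. Among 2937 probe sets with mean signals from 681 upward, the brightest, 54.6% were called but only 10.1% were called with at least 2-fold. Among the 2937 dimmest, with mean signals of 26.8 to 89.9, 36.9% were called and 20.7% were called with at least 2-fold. The median standard error was 0.0918 in the former and 0.233 in the latter. A clear signal in 1 line only was rare among probe sets. Signals at or under 9.75 in all 3 arrays of 1 line and at least 97.5 in all 3 of the other were seen for 38 probe sets in favour of B73, none of which (0) had an annotated gene, and for 20 in favour of Mo17, of which 1 belonged to an annotated gene, pdc2. Another probe set of pdc2 read 1395, 1455 and 1664 in B73, so this case describes a probe set and not the gene.

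Annotated genes were grouped into families by their names, with the brightest tested probe set standing for each gene. Of 789 annotated genes tested, 411 were called (52.1%), 203 higher in B73 (25.7%) and 208 in Mo17 (26.4%), and 127 (16.1%) differed at least 2-fold, 7.98% toward B73 and 8.11% toward Mo17. Arrays of the lines did not overlap for 60.6% of the genes, with B73 above in 29.9% and Mo17 above in 30.7%. The median log2 difference (B73 minus Mo17 throughout) was -0.007 after the scaling, which by itself draws the arrays to a common level. In the values as deposited the median of these genes was -0.22, with 89 called toward B73 and 191 toward Mo17. Families held 553 of these genes, and 51 families had at least 3 tested members. Every family count below is to be read beside the shares over all annotated genes, 25.7% toward B73 and 26.4% toward Mo17. No family was tested as a set. Calls in both directions occurred in 40 of the 51 families, toward B73 alone in 7 and toward Mo17 alone in 4. Median differences were under 0.2 in size in 31 families and reached 0.5 in 3, all toward Mo17: the transfer cell layer, oxylipin synthesis, and ion pumps, channels and carriers. The auxin and ethylene median, 0.49 toward B73, lay just under that cut. With 4 times the constant added before log2, the medians of oxylipin synthesis and ion pumps were -0.44 and -0.36. The mix of directions within most families is visible in the plot of family members.

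**Figure D3:**
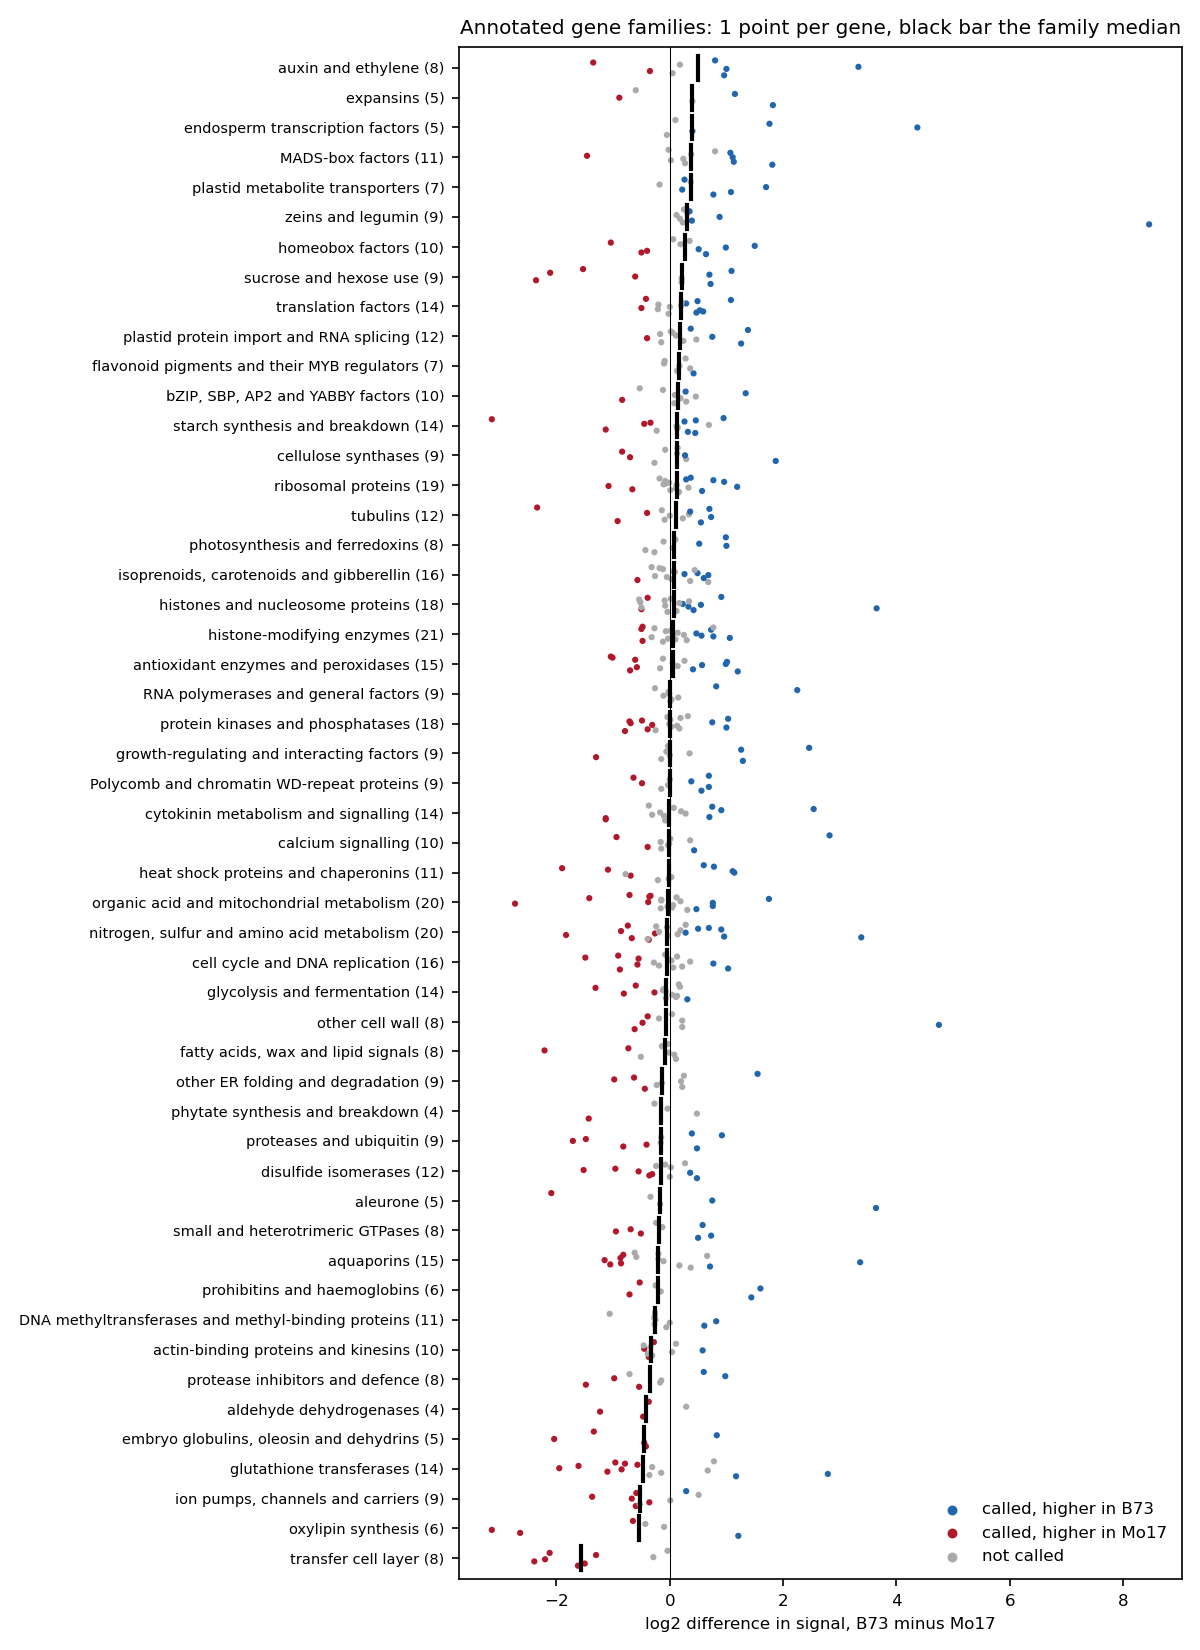
Log2 difference in signal between B73 and Mo17 (horizontal axis, positive where higher in B73) for each tested gene of the 51 families with 3 or more tested genes (number of genes in brackets). Blue and red points were called, grey points were not, and the black bar is the family median, which runs from -1.56 for the transfer cell layer to 0.49 for auxin and ethylene genes.

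Of 9 genes tested for zeins and a legumin, 4 were called toward B73 and 0 toward Mo17 by the brightest probe set of each, with a median of 0.31, against 25.7% and 26.4% over all annotated genes. The delta zein gene dzs18, which encodes a sulfur-rich storage protein, had signals of 18315, 15559.6 and 15999.8 in B73 and 36.3, 20.7 and 65 in Mo17, a log2 difference of 8.46 (SE 0.26, adjusted p = 1.3e-08). On this probe set the lines stood far apart, with every Mo17 array at 65 or less. All 4 tested probe sets of dzs18 were called toward B73, with log2 differences from 2.06 to 8.46. On another of them Mo17 read 515, 190.4 and 481, a log2 difference of 5.25. Much smaller differences were found for z1C1_12, an alpha zein gene, at 6504, 5567 and 6791 in B73 and 5059.8, 2267 and 3393 in Mo17, with a log2 difference of 0.88 (SE 0.23, adjusted p = 0.0103). The gene z1C2, another alpha zein gene, had signals of 8594, 7427 and 7722 in B73 and 7156, 5507 and 5982 in Mo17 and a difference of 0.35 (adjusted p = 0.0181). For the gamma zein gene gz50 the difference was 0.39 (adjusted p = 0.0198). In all 3 of these genes Mo17 array 1 lay closest to the B73 arrays.

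Mo17 array 1 also stood apart for zein genes that were not called. The gene gz27, which encodes the 27-kDa gamma zein, had signals of 10275, 9626 and 9449 in B73 and 10442, 7596 and 7252 in Mo17, and leg1, the legumin gene, had 13696, 13006 and 12758 in B73 and 13723, 10620.3 and 10729.8 in Mo17. In both, Mo17 array 1 was the highest of the 6 arrays and the other Mo17 arrays were the lowest. Without Mo17 array 1, all 9 genes were called higher in B73, with adjusted p = 0.000509 for gz27, 0.00131 for leg1, 0.000502 for z1D_2, 0.00302 for z1C1_4 and 0.00836 for z1C1_20. With all arrays, their log2 differences were 0.23 (adjusted p = 0.155), 0.18 (adjusted p = 0.173), 0.25 (adjusted p = 0.0982), 0.31 (adjusted p = 0.152) and 0.12 (adjusted p = 0.276) in the same order. With crossing date as a block, 7 of the 9 were called. The count was 2 without B73 array 1, Mo17 array 2 or Mo17 array 3, and 2 in the values as deposited. A dim second probe set of gz27 went the other way, at 357, 323 and 336 in B73 and 545, 544 and 539 in Mo17, and was called toward Mo17 with a log2 difference of -0.67 (adjusted p = 0.000211). Alpha zeins form a family of near-identical copies, so their probe sets can share transcripts.

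Transcription factors of storage genes were also called toward B73 where they were called. Of 5 tested, 3 were called toward B73 and 0 toward Mo17, with a median of 0.40. The gene o2 encodes opaque2, a bZIP activator of alpha zein genes, and had signals of 4709, 3246 and 3702 in B73 and 193, 166 and 173 in Mo17, with a difference of 4.37 (SE 0.13, adjusted p = 1.28e-08). A second, dimmer probe set of o2 gave 1494, 1272 and 1414 in B73 and 634, 823 and 673 in Mo17, a log2 difference of 0.97. Both probe sets separated the lines, but by very different amounts. Signals of ohp1, which encodes a bZIP partner of opaque2, were 414, 410.3 and 439.6 in B73 and 128, 118 and 107 in Mo17, a difference of 1.76 (SE 0.11, adjusted p = 1.44e-06). The gene nkd1, which encodes a zinc-finger factor needed for aleurone identity, had signals of 4646, 4978 and 4905 in B73 and 3612, 3868 and 3541 in Mo17 and differed by 0.40 (adjusted p = 0.00129), a call lost in the values as deposited (adjusted p = 0.505). A pair of further regulators did not pass the test: PBF, the prolamin-box binding factor, at 3728, 3740.1 and 3881 in B73 and 3914, 3829 and 3995 in Mo17, and ohp2, a close relative of ohp1, at 302, 311 and 372 in B73 and 313, 276 and 329 in Mo17, with differences of -0.05 (adjusted p = 0.578) and 0.10 (adjusted p = 0.535).

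Genes of starch synthesis and breakdown went both ways: of 14 tested, 5 were called toward B73 and 4 toward Mo17, with a median of 0.13. The outstanding member was zSSIIa, starch synthase IIa, which elongates short glucan chains, with signals of 593, 207 and 286 in B73 and 2976, 2689.9 and 3249 in Mo17 and a difference of -3.14 (SE 0.30, adjusted p = 1.93e-05). All Mo17 arrays were above all B73 arrays, and B73 array 1 was above the other B73 arrays. Without B73 array 1 the difference was -3.55. The debranching enzyme gene zpu1, a pullulanase, was higher in B73 at 2706, 2238 and 2217 in B73 and 1803, 973 and 1058 in Mo17, a difference of 0.95 (adjusted p = 0.00338). The gene wx1, which encodes the granule-bound starch synthase that makes amylose, was also higher in B73, at 11349.6, 10589 and 10236 in B73 and 8768, 7499.6 and 7198 in Mo17, a difference of 0.46 (adjusted p = 0.00197). Groups did not overlap for any of these 3 genes.

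The first step of starch synthesis, ADP-glucose pyrophosphorylase, leaned slightly toward B73. The large subunit gene sh2 had signals of 14196, 14612 and 14783 in B73 and 13539, 11590.1 and 11374 in Mo17, a difference of 0.26 (adjusted p = 0.0244), whereas the small subunit gene bt2 had 6715, 7908 and 8411 in B73 and 6345, 7394 and 7486 in Mo17 and overlapped between the lines (log2 difference 0.12, adjusted p = 0.378). A further pair of subunit genes by name, Agpsemzm and AGPLS3, differed by 0.32 (adjusted p = 0.0091) and 0.45 (adjusted p = 0.0439). Branching enzymes split: sbe1 was higher in Mo17 at 2756, 2845 and 2479 in B73 and 3089, 3616 and 3518 in Mo17 (log2 difference -0.34, adjusted p = 0.0104), and SBEIIb, the main branching enzyme of endosperm, was not called at 0.13. On the Mo17 side were also GLG1, a glycogenin-like gene by name, at -1.13 (adjusted p = 0.00206), and iso2, an isoamylase subunit gene, at -0.45 (adjusted p = 0.0357). The ADP-glucose carrier gene bt1 (log2 difference 0.14, adjusted p = 0.13), the starch synthase III gene du1 (log2 difference 0.69, adjusted p = 0.108) and GBSSIIa (log2 difference -0.23, adjusted p = 0.312) did not pass the test. Calls in the B73 direction numbered 3 without B73 array 2 or Mo17 array 3 and 1, that of zpu1, in the values as deposited.

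Of 9 tested genes of sucrose and hexose use, 3 were higher in B73 and 4 in Mo17. The cell wall invertase gene mn1, miniature1, which splits sucrose at the base of the endosperm, had signals of 59.5, 62.6 and 15.5 in B73 and 268, 186 and 305 in Mo17, a difference of -2.36 (SE 0.37, adjusted p = 0.000548). The 3 sucrose synthase genes did not move together. Signals of sus1 were 724, 226 and 299 in B73 and 1555, 1692 and 1589.8 in Mo17, a difference of -2.11 (SE 0.33, adjusted p = 0.000536), those of sus2 were 1091, 542 and 491 in B73 and 230.1, 376 and 330.1 in Mo17, a difference of 1.09 (adjusted p = 0.00928) in the opposite direction, and those of sh1, shrunken1, the major form of endosperm, were 15029, 12828 and 12297 in B73 and 14759, 10279 and 10092 in Mo17 and overlapped (log2 difference 0.21, adjusted p = 0.253). B73 array 1 was above the other B73 arrays in both sus1 and sus2, and without it the differences were -2.59 and 0.74.

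The sucrose transporter gene sut1, dim in both lines, had 14.9, 7.31 and 24.9 in B73 and 92.7, 49.9 and 48.1 in Mo17, a difference of -1.53 (adjusted p = 0.00336). Sucrose-phosphate phosphatase spp1 was higher in Mo17 (log2 difference -0.61, adjusted p = 0.000202) and sucrose-phosphate synthase sps1 higher in B73 (log2 difference 0.70, adjusted p = 0.0113). Of the fructokinase genes, frk1 was higher in B73 at 371, 343 and 335 in B73 and 184, 252 and 193 in Mo17 (log2 difference 0.72, adjusted p = 0.0015), and frk2 was not called (log2 difference 0.21, adjusted p = 0.394). Without scaling, 1 of the 9 genes, sus2, was called toward B73 and 4 toward Mo17.

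**Figure D4:**
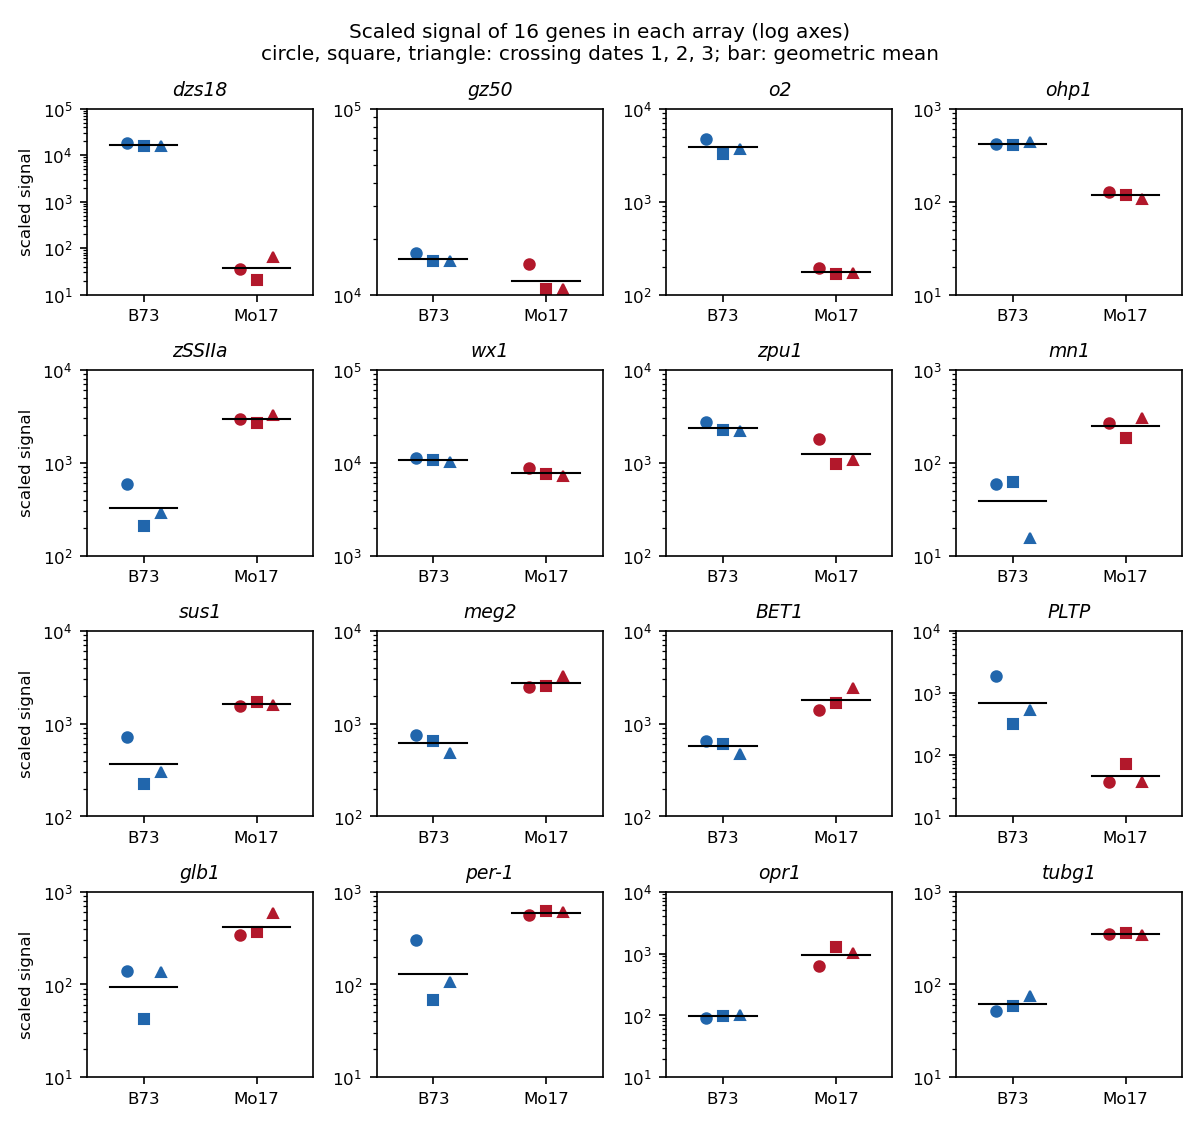
Scaled signal (vertical axes, log scale) of 16 genes in the 3 B73 arrays (blue) and the 3 Mo17 arrays (red), with the geometric mean as a bar and 1 symbol per crossing date. The lines do not overlap in any panel, and B73 array 1 (circle) stands above the other B73 arrays for zSSIIa, sus1, PLTP and per-1. All 16 genes were picked from called genes, so the panels do not represent the uncalled ones. Over all annotated genes tested, the lines did not overlap for 60.6%.

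Of 7 genes for carriers that move carbon across the plastid envelope, 5 were called toward B73 and 0 toward Mo17, with a median of 0.37. Signals of glct1, a plastid glucose transporter gene by name, were 2888, 2296 and 2482 in B73 and 1237, 1268 and 1096 in Mo17, a difference of 1.08 (SE 0.10, adjusted p = 1.93e-05), and 2 more probe sets of the gene were also called toward B73. Those of pDCT1, a plastid dicarboxylate transporter gene by name, were 220.4, 191 and 176 in B73 and 63.9, 50.4 and 46.5 in Mo17, a difference of 1.70 (SE 0.16, adjusted p = 2.04e-05). The triose phosphate carrier gene TPT was dim but differed at 0.77 (adjusted p = 0.00882). Without B73 array 1, B73 array 2 or Mo17 array 3, and also under median scaling and in the values as deposited, 3 of the 7 were called. Of 12 genes of plastid protein import and RNA splicing, 4 were higher in B73 and 1 in Mo17, against 25.7% and 26.4% over all annotated genes, with a median of 0.17 that was -0.02 in the values as deposited. The import receptor gene toc34 had signals of 2554, 2791 and 2622 in B73 and 1077, 1035 and 933 in Mo17, a difference of 1.38 (SE 0.08, adjusted p = 9.57e-07). Its relative by name toc34B was also higher in B73, at 0.37 (adjusted p = 0.00515). The intron splicing factor gene CRS2 differed by 1.26 (adjusted p = 0.00078).

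Of 8 genes tested for the basal transfer layer, 0 were higher in B73 and 6 in Mo17, all 6 at least 2-fold, with a median of -1.56. These genes encode small secreted proteins of the transfer cells. Signals of meg2 were 761, 656 and 480.0 in B73 and 2463, 2568 and 3224 in Mo17, a difference of -2.12 (SE 0.16, adjusted p = 4.78e-06), and those of BET1 were 656, 609 and 470.3 in B73 and 1399.5, 1658 and 2427 in Mo17, a difference of -1.62 (SE 0.19, adjusted p = 8.87e-05). Those of bap2 were 264, 231 and 181 in B73 and 903, 1005 and 1299.7 in Mo17, a difference of -2.20 (SE 0.16, adjusted p = 3.71e-06). The lines were well apart in all 3, and Mo17 array 3 was the highest. Differences of -2.39, -1.50 and -1.30 were found for bap1-b, bap-1a and betl4. Probe sets of the bap genes may share transcripts, which was not tested. Not every member followed. The gene meg6, at 795, 698 and 765 in B73 and 750.0, 799 and 765 in Mo17, did not pass the test (log2 difference -0.04, adjusted p = 0.755), and betl3, at 253, 164 and 110.1 in B73 and 175, 166 and 301 in Mo17, overlapped (log2 difference -0.29, adjusted p = 0.437). The invertase gene mn1, which belongs to the same layer, moved as described above. The count of 6 was the same under every alternative setting that tested all 8 genes, and 5 of 6 were called where only the 5874 brightest probe sets were tested. In the region around the embryo, esr2 had signals of 59.6, 49.7 and 49.7 in B73 and 134, 69 and 200.0 in Mo17, a difference of -1.09 (adjusted p = 0.0144).

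Aleurone genes did not share a direction. The lipid transfer protein gene PLTP had signals of 1868, 317 and 519 in B73 and 36.6, 70.4 and 35.8 in Mo17, a difference of 3.64 (SE 0.53, adjusted p = 0.00033), and without B73 array 1 the difference was 2.91. The peroxiredoxin gene per-1, typical of dormant aleurone and embryo, had signals of 300.0, 68.6 and 106 in B73 and 556, 619.6 and 604 in Mo17, a difference of -2.09 (SE 0.39, adjusted p = 0.00167) in the opposite direction. In both genes B73 array 1 was the highest B73 array. The receptor kinase gene cr4, crinkly4, which acts in aleurone cell fate, was higher in B73 at 102, 92.5 and 86.3 in B73 and 48.7, 48.9 and 57.2 in Mo17 (log2 difference 0.75, adjusted p = 0.00365). With crossing date as a block or without B73 array 1, and also under median scaling, 2 of the 5 aleurone genes were called toward Mo17 in place of 1, beside 2 toward B73. Embryo-type genes were higher in Mo17 in 4 of 5 cases and in B73 in 1. The globulin gene glb1 had signals of 138, 42.8 and 137 in B73 and 345, 366 and 582 in Mo17, a difference of -2.04 (SE 0.37, adjusted p = 0.0013). The oleosin gene ole1 had 603, 224 and 336 in B73 and 885, 980.1 and 900.0 in Mo17, a difference of -1.34 (SE 0.27, adjusted p = 0.00272). The dehydrin gene dhn2 followed with -0.45 (adjusted p = 0.012), a call lost without Mo17 array 2 (adjusted p = 0.0518), when 2 of the 5 genes were called toward Mo17. The exception was glb3, a globulin gene by name with signals of 11549.6, 10168 and 10363 in B73 and 6997, 5621 and 5524 in Mo17, 0.83 on the log2 scale and higher in every B73 array.

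Disulfide isomerases, which make and rearrange protein disulfide bonds, had 2 of 12 genes called toward B73 and 5 toward Mo17, against 25.7% and 26.4% over all annotated genes, with a median of -0.16. The gene pdi4 had signals of 129.5, 128 and 174 in B73 and 412, 434 and 435 in Mo17, a difference of -1.52 (SE 0.13, adjusted p = 1.18e-05). The gene pdi3 had 773, 726 and 767 in B73 and 1089, 1117 and 1136 in Mo17, a difference of -0.55 (SE 0.08, adjusted p = 0.000255). On the B73 side, PDIL5-1 differed by 0.48 (adjusted p = 0.000888). The derlin genes, which act in the removal of misfolded proteins, were divided: derlin4 had 1479.9, 1351 and 1341 in B73 and 448, 453 and 511 in Mo17, a difference of 1.55 (SE 0.09, adjusted p = 7.42e-07). The gene derlin1 had 938, 1084 and 1149 in B73 and 1579, 1480.3 and 1875 in Mo17, a difference of -0.63 (adjusted p = 0.00114). The gene dad1, a subunit of oligosaccharyl transferase, was higher in Mo17 at 1227, 1205 and 1318 in B73 and 2262, 2564 and 2584 in Mo17 (log2 difference -0.98, SE 0.08, adjusted p = 9.81e-06). Calnexin, CNX, was also higher in Mo17 (log2 difference -0.44, adjusted p = 0.0141), a call lost without Mo17 array 2 (adjusted p = 0.0591).

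Heat shock protein genes went both ways, with 4 of 11 higher in B73 and 3 in Mo17. The genes hsp70-4 and hsp70-5, of the 70-kDa chaperone class, had signals of 5150.2, 5828 and 5401 in B73 and 2977, 3268 and 3302 in Mo17 and of 4210.4, 3872 and 3848 in B73 and 2828, 2637 and 2391 in Mo17, differences of 0.78 (SE 0.08, adjusted p = 3.2e-05) and 0.60 (SE 0.08, adjusted p = 0.000253). All 3 tested probe sets of hsp70-5 were called higher in B73. Small heat shock protein genes went both ways. The gene hsp22 had 173, 129 and 188 in B73 and 485, 545 and 939.8 in Mo17, a difference of -1.90 (SE 0.23, adjusted p = 0.000106). The gene hsp18c had 282, 219 and 228 in B73 and 127, 63.6 and 147 in Mo17, a difference of 1.11 (adjusted p = 0.0052). With crossing date as a block, 5 of the 11 were called toward Mo17.

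Ribosomal protein genes were mostly alike between the lines, with a median difference of 0.12 and a median size of 0.18, but 6 of 19 were higher in B73 and 2 in Mo17. The large-subunit gene rpl30 had signals of 3022, 3414 and 3621 in B73 and 1341, 1479.7 and 1568 in Mo17, a difference of 1.19 (SE 0.09, adjusted p = 5.53e-06). The small-subunit gene rps13 had 6163, 6523 and 6644 in B73 and 3134, 4012 and 4265 in Mo17, a difference of 0.77 (SE 0.11, adjusted p = 0.000307). In the opposite direction, rpl39 had 2828, 2594 and 3229.7 in B73 and 6143, 5907 and 6239 in Mo17, a difference of -1.08 (SE 0.09, adjusted p = 7.49e-06). A second probe set of rpl39 read 551, 473 and 523 in B73 and 5523, 5620.4 and 5827 in Mo17, a log2 difference of -3.43. Without Mo17 array 1 the counts were 8 and 4, and in the values as deposited they were 2 and 2.

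Translation factor genes showed a like split, with 6 of 14 higher in B73 and 2 in Mo17 and a median of 0.21. The RNA helicase gene tif4A2, an eIF4A by name, had signals of 5685, 5017 and 4692 in B73 and 2297, 2551 and 2403 in Mo17, a difference of 1.08 (SE 0.09, adjusted p = 7.14e-06). The gene eIF3A, a subunit of initiation factor 3 by name, differed by 0.53 (adjusted p = 0.000771). On the Mo17 side was tif5A, an eIF5A gene by name, at 2457, 2659.7 and 2762 in B73 and 3286, 3578 and 3717 in Mo17 (log2 difference -0.42, adjusted p = 0.00176). With crossing date as a block the counts were 7 and 4, without Mo17 array 2 they were 5 and 1, without Mo17 array 3 they were 6 and 1, and in the values as deposited they were 1 and 1.

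Polycomb genes encode a complex that silences genes through histone methylation, and in endosperm it acts at imprinted genes. Of 9 genes of this group and of related WD-repeat proteins, 4 were higher in B73 and 2 in Mo17. Signals of mez1, a histone methyltransferase gene and one of the imprinted genes of maize endosperm, were 1209.7, 1208 and 1034 in B73 and 764, 721 and 641 in Mo17, a difference of 0.69 (SE 0.10, adjusted p = 0.000342). Those of fie1, an imprinted WD-repeat partner that is expressed in endosperm, were 1349, 1189 and 1118 in B73 and 783, 958 and 736 in Mo17, a difference of 0.56 (SE 0.12, adjusted p = 0.00285). Those of vef101 were 379.8, 368 and 310.0 in B73 and 208, 226 and 208 in Mo17, a difference of 0.69 (SE 0.11, adjusted p = 0.000783). All 3 were higher in every B73 array than in any Mo17 array. In the opposite direction, nfc101, which encodes a WD-repeat protein of several chromatin complexes, had 806, 697 and 648 in B73 and 955, 1051 and 1010.2 in Mo17, a difference of -0.49 (adjusted p = 0.00264). In the values as deposited, 0 of the 9 were called toward B73 and 2 toward Mo17.

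DNA methyltransferases and methyl-binding proteins counted 2 of 11 higher in B73 and 0 in Mo17, although the median was -0.26. The methyl-binding protein gene mbd108 had signals of 341, 321 and 316 in B73 and 181, 170.2 and 189 in Mo17, a difference of 0.82 (SE 0.11, adjusted p = 0.000147). The gene mbd101 differed by 0.61 (adjusted p = 0.000527). Calls toward Mo17 were 2 with crossing date as a block, 1 without B73 array 1, 3 without Mo17 array 1 and 1 in the values as deposited. Of 21 genes for histone-modifying enzymes, 5 were higher in B73 and 3 in Mo17, against 25.7% and 26.4% over all annotated genes. The acetylation genes ada2 and gcn5, whose products work in a single complex, moved together: 574, 580.0 and 591 in B73 and 288, 258 and 274 in Mo17 for ada2, a difference of 1.06 (SE 0.09, adjusted p = 1.1e-05), and 482, 419.7 and 429 in B73 and 264, 242 and 262 in Mo17 for gcn5, a difference of 0.77 (SE 0.10, adjusted p = 0.00019). The plant-type histone deacetylase gene hdt103 differed by 0.73 (SE 0.09, adjusted p = 8.67e-05), at 4119, 3987 and 3464 in B73 and 2273, 2442 and 2248 in Mo17. Higher in Mo17 were set105 (log2 difference -0.48, adjusted p = 0.000905) and the deacetylase gene Hda1 (log2 difference -0.48, adjusted p = 0.00179). Without scaling, 1 of the 21 was called toward B73, ada2, and 3 toward Mo17.

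Histone and nucleosome genes counted 6 of 18 higher in B73 and 2 in Mo17, against 25.7% and 26.4% over all annotated genes. Their median was 0.07. The H2B gene his2b5 had signals of 459, 531 and 525 in B73 and 37.1, 20.2 and 38.5 in Mo17, a difference of 3.65 (SE 0.19, adjusted p = 3.77e-07), by far the family's largest. The gene ssrp1, a subunit of the FACT histone chaperone, had 925, 991 and 917 in B73 and 527, 494 and 472 in Mo17, a difference of 0.91 (SE 0.09, adjusted p = 2.01e-05). Calls toward B73 numbered 3 without B73 array 2 or Mo17 array 3 and 4 without Mo17 array 2. Calls toward Mo17 numbered 4 with the block or without Mo17 array 1, 1 without Mo17 array 2 and 0 without B73 array 2. As deposited, the values gave counts of 2 and 3. RNA polymerase genes and general transcription factors had 2 of 9 called, both toward B73. They were sig3, a sigma factor gene by name, at 89.7, 58.3 and 67.5 in B73 and 4.17, 7.57 and 10.4 in Mo17 (log2 difference 2.25, SE 0.25, adjusted p = 6.56e-05), and tbp2, a TATA-binding protein gene at 164, 171 and 148 in B73 and 90.4, 81.1 and 89.5 in Mo17 (log2 difference 0.82, adjusted p = 0.000708).

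MADS-box genes, known for floral organ identity and also active in seeds, were higher in B73 in 4 of 11 cases and in Mo17 in 1. The gene m20 had signals of 204, 206 and 217 in B73 and 48.9, 57.6 and 51.6 in Mo17, a difference of 1.81 (SE 0.14, adjusted p = 4.02e-06), and zmm19, the gene behind tunicate ears when it is misexpressed, had 415, 434 and 395 in B73 and 192, 186 and 199.8 in Mo17, a difference of 1.07 (SE 0.10, adjusted p = 1.92e-05). The 1 gene higher in Mo17 was si1, silky1, a floral organ gene, at 209.9, 221 and 152 in B73 and 632, 526 and 488 in Mo17 (log2 difference -1.46, SE 0.16, adjusted p = 4.45e-05). Homeobox genes counted 4 of 10 higher in B73 and 3 in Mo17. The knotted-type genes knox7 and lg3 were both higher in B73, at 526, 499.5 and 483 in B73 and 273, 251 and 225 in Mo17 (log2 difference 0.99, SE 0.11, adjusted p = 4.62e-05) and at 175, 117 and 109 in B73 and 51.5, 33.1 and 36.2 in Mo17 (log2 difference 1.50, adjusted p = 0.000358). Higher in Mo17 was Hox2a (log2 difference -0.50, adjusted p = 0.00325). Without B73 array 3 or Mo17 array 1, 1 homeobox gene was called toward Mo17, and in the values as deposited 2 were called toward B73.

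Growth-regulating factors and their co-activators had 3 of 9 genes higher in B73 and 1 in Mo17, all 4 at least 2-fold. Signals of GRF5 were 285, 263 and 229 in B73 and 68.4, 30.8 and 26.4 in Mo17, a difference of 2.46 (SE 0.27, adjusted p = 4.8e-05). Those of the co-activator gene GIF3 were 193, 184 and 179 in B73 and 484, 461 and 467 in Mo17, a difference of -1.30 (SE 0.10, adjusted p = 3.94e-06). Among bZIP, SBP and AP2 factors, 3 of 10 were called. The gene mEmBP-1a, a G-box binding bZIP factor by name, had 220.5, 193 and 175 in B73 and 95.9, 56.5 and 66.7 in Mo17, a difference of 1.34 (SE 0.19, adjusted p = 0.000281), and OBF1, which binds ocs elements, had 937, 663 and 695 in B73 and 1521, 1321 and 1264 in Mo17, a difference of -0.84 (SE 0.13, adjusted p = 0.000589). The 3 tested probe sets of OBF1 ranged from -0.84 to -0.04, and not all were called. Without B73 array 2 or B73 array 3, 1 gene of this family was called toward B73 in place of 2.

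Glycolysis and fermentation genes were largely level, with 1 of 14 higher in B73 and 4 in Mo17, and a median of -0.07. The genes of pyruvate decarboxylase, the entry to ethanol fermentation, were not alike. Signals of pdc1 were 1283, 1468 and 1566 in B73 and 3442, 3205 and 4147 in Mo17, a difference of -1.31 (SE 0.11, adjusted p = 9.81e-06). A second tested probe set of pdc1 was not called (log2 difference -0.37). The gene pdc3 had 887, 727 and 692 in B73 and 1154, 1295 and 1047 in Mo17, a difference of -0.60 (adjusted p = 0.00207). By its brightest probe set pdc2 was not called (log2 difference 0.18, adjusted p = 0.316). Its other tested probe sets were called in opposite directions (log2 differences 4.78 and -6.55). The cytosolic glyceraldehyde phosphate dehydrogenase gene gpc1 had 2175, 2286 and 2409 in B73 and 3696, 3979 and 4371 in Mo17, a difference of -0.81 (SE 0.08, adjusted p = 3.95e-05). Alcohol dehydrogenase adh1 was slightly higher in B73 (log2 difference 0.31, adjusted p = 0.0173), a call lost without any 1 of B73 array 2, B73 array 3, Mo17 array 2 or Mo17 array 3 (adjusted p = 0.071, 0.0747, 0.0661 and 0.0566) and in the values as deposited (0.73).

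Of 20 genes for organic acids and mitochondria, 4 were higher in B73 and 6 in Mo17. The formate dehydrogenase gene fdh1 had signals of 321, 325 and 278 in B73 and 1855, 2208 and 2240.1 in Mo17, a difference of -2.73 (SE 0.10, adjusted p = 5.21e-08). The phosphoenolpyruvate carboxylase genes pep4 and pep7 moved in opposite directions, with 151, 154 and 115 in B73 and 37.3, 27.2 and 40.3 in Mo17 for pep4 (log2 difference 1.75, SE 0.19, adjusted p = 5.22e-05) and 60.5, 53.8 and 42.1 in B73 and 174, 153 and 139.7 in Mo17 for pep7 (log2 difference -1.42, SE 0.17, adjusted p = 9.43e-05). The voltage-dependent anion channel gene vdac2 was higher in Mo17 (log2 difference -0.71, adjusted p = 0.0007) and the adenine nucleotide carrier gene ANT2 in B73 (log2 difference 0.47, adjusted p = 0.000872). In the values as deposited the counts were 2 and 3. Aldehyde dehydrogenases were called in 3 of 4 cases, all toward Mo17: AMADH2, an aminoaldehyde dehydrogenase gene, had 299.6, 232 and 237 in B73 and 626, 628 and 571 in Mo17, a difference of -1.23 (SE 0.12, adjusted p = 2.28e-05), followed by AMADH1b (log2 difference -0.47, adjusted p = 0.000681) and rf2b (log2 difference -0.37, adjusted p = 0.00684). With the block or without Mo17 array 1, 1 gene of this family was called toward B73, and in the values as deposited 2 were called, both toward Mo17.

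Amino acid, nitrogen and sulfur metabolism was evenly divided, with 6 of 20 genes higher in each line. Homocysteine methyltransferases, which make methionine, were called in both directions. The gene HMT-2 had signals of 214, 258 and 273 in B73 and 14.5, 22.3 and 9.81 in Mo17, a difference of 3.38 (SE 0.21, adjusted p = 1.24e-06). The gene HMT-3 had 1831, 2167 and 1954 in B73 and 946, 1055 and 1052 in Mo17, a difference of 0.96 (SE 0.09, adjusted p = 1.93e-05). The gene HMT-1, named after its values were seen, was called toward Mo17 (log2 difference -0.67, adjusted p = 0.0205). Called toward Mo17 was aprl1, an APS reductase-like gene by name, which had 434, 288 and 213 in B73 and 1049, 946 and 1286 in Mo17, a difference of -1.83 (SE 0.22, adjusted p = 9.67e-05). The serine acetyltransferase gene sat3 had 195, 184 and 208 in B73 and 379, 359 and 269 in Mo17, a difference of -0.74 (adjusted p = 0.00181). The glutamine synthetase gene gln2 was higher in Mo17 at 166, 109 and 97 in B73 and 229, 220.5 and 231 in Mo17 (log2 difference -0.86, adjusted p = 0.00328). The tryptophan synthase gene orp2 was higher in B73 (log2 difference 0.69, SE 0.11, adjusted p = 0.000462), a call lost in the values as deposited (adjusted p = 0.13), where the counts were 3 and 5.

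Glutathione transferases, which attach glutathione to xenobiotics and other reactive compounds, were higher in Mo17 in 7 of 14 cases and in B73 in 2, with a median of -0.47. The gene gst31 had signals of 269.7, 220.1 and 248 in B73 and 938, 736 and 659 in Mo17, a difference of -1.61 (SE 0.14, adjusted p = 1.06e-05), and gst17 had 389, 369 and 391 in B73 and 723, 679 and 697 in Mo17, a difference of -0.85 (SE 0.09, adjusted p = 3.04e-05). The gene gst2 had 46.3, 36.2 and 21.6 in B73 and 147, 159 and 167 in Mo17, a difference of -1.95 (SE 0.22, adjusted p = 6.19e-05). The largest difference of the family ran the other way, in In2-1, a gene induced by herbicide safeners, at 149.8, 129.6 and 128 in B73 and 16, 8.85 and 9.74 in Mo17 (log2 difference 2.79, SE 0.20, adjusted p = 3.46e-06). Counts were 1 and 6 without B73 array 3 and 4 and 6 without Mo17 array 1. Members of this family share sequence, and their probe sets may share transcripts.

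Antioxidant enzymes and peroxidases were called in 10 of 15 cases, 5 in each direction. Thioredoxin h genes were higher in Mo17, with trxh1 at 1339.8, 1078 and 1103 in B73 and 2231, 2415 and 2423 in Mo17 (log2 difference -1.01, SE 0.10, adjusted p = 2.28e-05), and so was the superoxide dismutase gene Sod4A at 494, 478 and 501 in B73 and 724, 778 and 925 in Mo17 (log2 difference -0.70, SE 0.10, adjusted p = 0.000392). The glutathione reductase gene gsr1 was higher in B73 at 315, 374 and 332 in B73 and 149.9, 179 and 172 in Mo17 (log2 difference 0.99, SE 0.12, adjusted p = 0.000106), as was the catalase gene CAT3, dim in both lines, at 78.7, 51.2 and 54.9 in B73 and 33.2, 11.5 and 21.5 in Mo17 (log2 difference 1.20, adjusted p = 0.00669). Without B73 array 2, B73 array 3 or Mo17 array 2, and in the values as deposited, 3 genes were called toward B73. Oxylipin synthesis, which includes the route to jasmonic acid, had a median of -0.54, with 1 of 6 genes higher in B73 and 3 in Mo17. Signals of opr1, an oxophytodienoate reductase, were 90.2, 98.3 and 103 in B73 and 625, 1298 and 1003 in Mo17, a difference of -3.14 (SE 0.22, adjusted p = 2.62e-06), and those of aos1, allene oxide synthase, were 23, 19 and 4.93 in B73 and 165, 166 and 99.4 in Mo17, a difference of -2.64 (SE 0.32, adjusted p = 0.000111). Those of aoc1, allene oxide cyclase, were 1378, 1498 and 1559.8 in B73 and 767, 548 and 597 in Mo17, a difference of 1.21 (SE 0.12, adjusted p = 3.19e-05). The genes of the successive enzymes allene oxide synthase and allene oxide cyclase differed in opposite directions.

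Protease inhibitors and defence genes counted 2 of 8 higher in B73 and 3 in Mo17. The cysteine protease inhibitor genes by name psei1 and psei7 moved apart, at 2007, 1770.0 and 2128 in B73 and 4042, 3730.2 and 3897 in Mo17 (log2 difference -0.98, SE 0.09, adjusted p = 1.15e-05) and at 1877, 1615 and 1817 in B73 and 1334, 1023 and 1147 in Mo17 (log2 difference 0.60, adjusted p = 0.0013). A second tested probe set of psei1 was not called (log2 difference -0.02). Proteases and ubiquitin genes counted 3 of 9 and 4. The cysteine protease genes see1 and ccp1 were higher in Mo17, at 98, 73.9 and 127 in B73 and 334, 267 and 268 in Mo17 (log2 difference -1.48, SE 0.18, adjusted p = 0.000128) and at 1137, 874 and 888 in B73 and 1763, 1780.2 and 1559 in Mo17 (log2 difference -0.82, SE 0.11, adjusted p = 0.000243). Calls toward B73 in this family were 1 without B73 array 2, Mo17 array 2 or Mo17 array 3, and 1 in the values as deposited.

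The hydroxyproline-rich glycoprotein gene HRGP, a structural wall protein, had signals of 749, 496 and 595 in B73 and 21.5, 7.75 and 12.1 in Mo17, a difference of 4.75 (SE 0.23, adjusted p = 2.4e-07), with every Mo17 array at 21.5 or less. It was the 1 gene called toward B73 among 8 genes of wall structure other than cellulose synthases and expansins, of which 3 were called toward Mo17. With crossing date as a block and without Mo17 array 1, 2 of the 8 were called toward B73. The strongest call toward Mo17 was Bk2L3, of the COBRA-like family by name, at 893, 1009.6 and 1051 in B73 and 1523, 1509.8 and 1508 in Mo17 (log2 difference -0.62, SE 0.08, adjusted p = 0.000225). Of 9 cellulose synthase genes, 2 were higher in each line: cesa6 had 547, 576 and 629.6 in B73 and 982, 1111 and 1069 in Mo17, a difference of -0.84 (SE 0.09, adjusted p = 5.11e-05). The gene CesA-4 had 114, 86 and 78.1 in B73 and 19.6, 15 and 19.7 in Mo17, a difference of 1.87 (SE 0.21, adjusted p = 6.34e-05). Of 5 expansin genes tested, which loosen walls, 2 were called toward B73 and 1 toward Mo17. They were EXPA5 and expB6, higher in B73 (log2 difference 1.82, adjusted p = 0.000982 and log2 difference 1.15, adjusted p = 0.00286), and expA4, higher in Mo17 by its brightest probe set (log2 difference -0.89, adjusted p = 0.00292). Calls toward Mo17 were 2 without B73 array 1 and in the values as deposited, and without Mo17 array 1 the counts were 3 and 2. Of 12 tubulin genes, 4 were called toward B73 and 3 toward Mo17. Gamma tubulin tubg1, which starts new microtubules, had 52, 59 and 74.5 in B73 and 346, 356 and 345 in Mo17, a difference of -2.34 (SE 0.14, adjusted p = 1.13e-06). The beta tubulin gene tub7 had 5136, 4741 and 4627 in B73 and 3065, 3002 and 2838 in Mo17, a difference of 0.70 (SE 0.07, adjusted p = 4.27e-05). Without scaling, 0 tubulin genes were called toward B73 and 3 toward Mo17. The profilin genes PRO4 and PRO5, which bind actin monomers, moved in opposite directions (log2 difference 0.58, adjusted p = 0.000166 and log2 difference -0.45, adjusted p = 0.000674), and the call of PRO4 was lost in the values as deposited (adjusted p = 0.157).

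Of 16 cell cycle and DNA replication genes, 2 were called toward B73 and 5 toward Mo17, with a median of -0.05. The replication clamp genes were both higher in Mo17, pcna2 at 275, 229 and 281 in B73 and 528, 954 and 844 in Mo17 (log2 difference -1.49, SE 0.20, adjusted p = 0.000169) and pcna1 at 296, 299 and 299.8 in B73 and 384, 496 and 451 in Mo17 (log2 difference -0.55, adjusted p = 0.00273). In contrast, the replication helicase gene MCM6 and the cyclin gene cycD2 were higher in B73, at 86.9, 88.7 and 91 in B73 and 35, 41 and 39.3 in Mo17 (log2 difference 1.03, adjusted p = 0.000591) and at 454, 414 and 423 in B73 and 254, 220.0 and 274 in Mo17 (log2 difference 0.77, adjusted p = 0.000329). The 3 tested probe sets of MCM6 ranged from 0.16 to 1.03, and not all were called. The call of cycD2 was lost in the values as deposited (adjusted p = 0.0572). The kinetochore gene CenpcA was higher in Mo17 (log2 difference -0.88, adjusted p = 0.00114).

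Auxin and ethylene genes had a median of 0.49, with 4 of 8 higher in B73 and 2 in Mo17. The auxin-binding protein genes were both higher in B73, abp4 at 538, 529 and 485 in B73 and 40.3, 42.4 and 45.5 in Mo17 (log2 difference 3.33, SE 0.12, adjusted p = 3.79e-08) and abp1 at 1692, 1426 and 1558 in B73 and 810.5, 697 and 814 in Mo17 (log2 difference 1.00, SE 0.10, adjusted p = 2.42e-05). So was yuc, of the YUCCA enzymes that make auxin, at 3172, 2593 and 2618 in B73 and 2063, 1409.8 and 1398 in Mo17 (log2 difference 0.80, adjusted p = 0.00164). Higher in Mo17 was iaglu, which joins auxin to glucose, at 256, 285 and 275 in B73 and 687, 668 and 778 in Mo17 (log2 difference -1.35, SE 0.10, adjusted p = 3.63e-06). Without B73 array 3 or Mo17 array 2, and in the values as deposited, 1 gene was called toward Mo17. Cytokinin genes counted 4 of 14 higher in B73 and 2 in Mo17, against 25.7% and 26.4% over all annotated genes. The response regulator gene crr2 had 253, 268 and 359 in B73 and 27.7, 40.2 and 62.6 in Mo17, a difference of 2.54 (SE 0.24, adjusted p = 1.9e-05). The receptor gene hk3 had 284, 301 and 285 in B73 and 144, 184 and 179 in Mo17, a difference of 0.75 (adjusted p = 0.000733). The phosphotransfer genes HP3 and HP1 were higher in Mo17 (log2 difference -1.13, adjusted p = 0.00027 and log2 difference -1.13, adjusted p = 0.00454). With the block 4 genes were called toward Mo17, and in the values as deposited the counts were 1 and 3.

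Protein kinases and phosphatases counted 3 of 18 higher in B73 and 6 in Mo17. The gene SnrK1, of the kinases that sense low sugar, had signals of 334, 361 and 347 in B73 and 191, 154 and 162 in Mo17, a difference of 1.00 (SE 0.12, adjusted p = 8.32e-05). The MAP kinase kinase gene mek1 had 2444, 2639.6 and 2764 in B73 and 3725, 3620.4 and 3637 in Mo17, a difference of -0.49 (SE 0.07, adjusted p = 0.000454). The receptor-like kinase genes ltk1 and ltk2 moved in opposite directions (log2 difference 0.75, adjusted p = 0.000185 and log2 difference -0.71, adjusted p = 0.000416). Calcium signalling genes counted 2 of 10 in each direction. A gene annotated as calmodulin had 653, 732 and 660.5 in B73 and 71.7, 86.1 and 109 in Mo17, a difference of 2.82 (SE 0.15, adjusted p = 3.44e-07). A second tested probe set of this gene was also called toward B73, at only 0.79. The annexin gene anx2 had 81, 81 and 95 in B73 and 149, 204 and 171 in Mo17, a difference of -0.94 (adjusted p = 0.000731).

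Aquaporins, the water channels of plasma membrane and vacuole, counted 2 of 15 higher in B73 and 5 in Mo17. The plasma membrane gene PIP2-5 had signals of 219.9, 159 and 147 in B73 and 10.5, 12.8 and 2.45 in Mo17, a difference of 3.36 (SE 0.27, adjusted p = 6.47e-06), and no Mo17 array exceeded 12.8. In the opposite direction, SIP1-2 had 959, 703 and 619.6 in B73 and 1846, 1627 and 1548 in Mo17, a difference of -1.15 (SE 0.15, adjusted p = 0.000153). The gene PIP2-2 had 94.8, 77 and 86.1 in B73 and 175, 165 and 232 in Mo17, a difference of -1.05 (SE 0.16, adjusted p = 0.000477). Counts were 1 and 6 without B73 array 1 or Mo17 array 2 and in the values as deposited, and 1 and 5 without B73 array 3. Ion pumps, channels and carriers had a median of -0.53, with 1 of 9 higher in B73 and 5 in Mo17. The plasma membrane proton pump genes mha4 and mha1 were higher in Mo17, at 61.6, 48 and 53.6 in B73 and 154, 152 and 159 in Mo17 (log2 difference -1.37, SE 0.15, adjusted p = 5.01e-05) and at 269, 283 and 273 in B73 and 426, 506 and 408 in Mo17 (log2 difference -0.67, SE 0.11, adjusted p = 0.000666). The calcium exchanger gene by name ZCAX2 also was (log2 difference -0.60, adjusted p = 0.00148). The 1 gene higher in B73 was vpp3, a vacuolar pyrophosphatase gene by name (log2 difference 0.29, adjusted p = 0.0116), a call lost under median scaling (adjusted p = 0.0948) and in the values as deposited (0.816). Calls toward B73 were 2 without Mo17 array 1.

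Isoprenoid and carotenoid genes counted 4 of 16 higher in B73 and 1 in Mo17, against 25.7% and 26.4% over all annotated genes. The 1 gene higher in Mo17, HYD3, a carotenoid hydroxylase that turns beta-carotene into zeaxanthin, had signals of 2718, 2722 and 2887 in B73 and 4324, 3963 and 4089 in Mo17, a difference of -0.57 (SE 0.07, adjusted p = 0.000134). The gene dxr, an early enzyme of the plastid isoprenoid route, had 527, 547 and 524 in B73 and 325, 354 and 307 in Mo17, a difference of 0.68 (SE 0.10, adjusted p = 0.000253). Calls toward B73 were 1 without B73 array 1, B73 array 2 or Mo17 array 2, 2 without B73 array 3 or Mo17 array 3, and 0 in the values as deposited. Of 8 lipid genes, 2 were called, both toward Mo17: the phospholipase D gene PLD1 at 9.77, 7.16 and 21.7 in B73 and 121, 87.8 and 70.3 in Mo17 (log2 difference -2.21, SE 0.29, adjusted p = 0.000175) and the elongase gene fae2 at 139, 142 and 133 in B73 and 279, 214 and 218 in Mo17 (log2 difference -0.73, adjusted p = 0.00145). Flavonoid genes and their MYB regulators had 1 of 7 called (14.3%), a count that was 0 without B73 array 2, B73 array 3, Mo17 array 2 or Mo17 array 3 and 2 without Mo17 array 1. Photosynthesis and ferredoxin genes counted 3 of 8 toward B73, led by fnr1, ferredoxin-NADP reductase, at 171, 162 and 175 in B73 and 98.7, 81 and 63 in Mo17 (log2 difference 1.00, adjusted p = 0.000806), and 1 was called toward Mo17 with the block or without Mo17 array 1. The phytate gene INO1, which makes inositol phosphate from glucose phosphate, was higher in Mo17 at 149.8, 131 and 209 in B73 and 418, 554 and 388 in Mo17 (log2 difference -1.43, SE 0.18, adjusted p = 0.000156), and the other 3 genes of its family were not called, except that 1 was called toward B73 without B73 array 1. Prohibitins, which act in mitochondria, and haemoglobins had 2 of 6 genes called each way: phb1 was higher in Mo17 at 988, 1070.3 and 1090.0 in B73 and 1513, 1852 and 1801 in Mo17 (log2 difference -0.71, SE 0.10, adjusted p = 0.000217) and Hb higher in B73 at 91.2, 78 and 53.6 in B73 and 31.9, 17.6 and 14.8 in Mo17 (log2 difference 1.44, adjusted p = 0.00162). Without Mo17 array 1, 4 of these 6 were called toward Mo17. A second tested probe set of phb1 was not called (log2 difference -0.01).

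Probe sets of the same gene did not always tell the same story. Of 133 genes with 2 or more tested probe sets, 37 had all of them called in 1 direction, 32 had none called, 56 had some called and some not, and 8 had calls in opposite directions. In 30 genes the probe sets differed from each other by over 1 on the log2 scale. For called genes named here, 15 further probe sets kept the direction but were not called. The widest case was the pyruvate decarboxylase gene pdc2. A probe set read 5.8, 8.87 and 1.93 in B73 and 1245, 1516 and 1439 in Mo17, a log2 difference of -6.55 (adjusted p = 7.54e-09). A second read 1395, 1455 and 1664 in B73 and 37.9, 55.5 and 43.2 in Mo17, a log2 difference of 4.78 (adjusted p = 9.54e-09). The remaining one read 1024, 999 and 1109 in B73 and 719, 977 and 1102 in Mo17 and was not called (log2 difference 0.18, adjusted p = 0.316). Each line was dim on 1 of these probe sets and bright on another.

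The initiation factor gene eIFiso-4E gave 3.00 on a probe set with 467, 557 and 557 in B73 and 49.6, 69 and 54 in Mo17, and -0.50 (adjusted p = 0.0299) on its brighter probe set. For gst31, 3 probe sets were called toward Mo17, at -1.61, -1.06 and -0.87, and 1 toward B73, at 0.97. For ubc7, a ubiquitin-conjugating enzyme gene, 4 bright probe sets were called toward B73, at 0.24 to 0.45, and 1 dim probe set toward Mo17, at -2.51. Opposite calls were also found for CDPK (0.43, 0.59 and -0.72), pdi11 (-0.31 and 0.51), expA4 (-0.89 and 0.76) and IIG1 (0.31, -0.71 and -1.89). A difference in transcript level and a difference in how well a probe set matches each line's sequence cannot be told apart from these signals, here or in the families above.

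**Figure D5:**
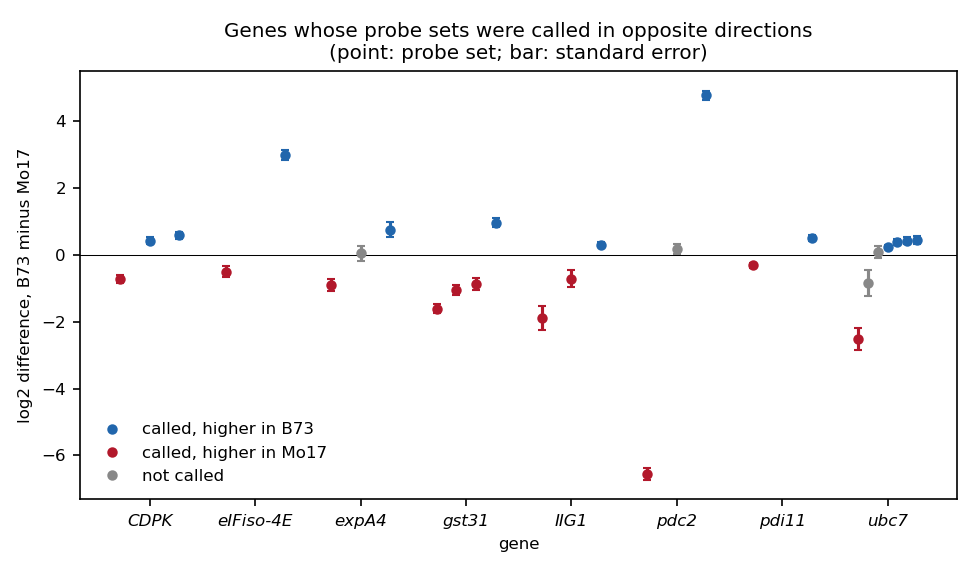
Log2 difference between B73 and Mo17 (vertical axis, positive where higher in B73, bar for the standard error) of each tested probe set of the 8 genes whose probe sets were called in opposite directions. The pdc2 probe sets span -6.55 to 4.78, and those of pdi11 -0.31 to 0.51.

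Outside the families, 236 of 331 annotated genes were tested, 57 higher in B73 and 70 in Mo17, with a median of -0.06. Among all annotated probe sets, the 6 largest differences toward B73 belonged to dzs18 (3 of its 4 tested probe sets, 5.25 to 8.46), MRP2 (5.46), umc1147 (5.33) and pdc2. The 6 largest toward Mo17 belonged to pdc2, CAF1 (-3.69), a dimmer probe set of IDP506 (-3.66), rpl39, opr1 and zSSIIa. Signals of umc1147, a marker locus without a named product here, were 733, 667 and 625 in B73 and 20.1, 3.6 and 2.66 in Mo17. A second tested probe set of umc1147 was also called toward B73, at only 0.64. Those of CAF1 were 33.7, 17.9 and 22.6 in B73 and 479, 402 and 407 in Mo17. Annotated probe sets were called at nearly the rate of the unannotated, 52.6% of 981 against 48.4% of 10766, and at least 2-fold in 16.7% and 16.5%. Unannotated probe sets held differences as large as the named ones: 1 read 2806, 3977 and 5118 in B73 and 4.8, 2.59 and 3.77 in Mo17, a log2 difference of 8.17, and another read 10.5, 13.1 and 3.46 in B73 and 7676, 6213 and 5676 in Mo17, a log2 difference of -8.47.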

How the data were processed

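Endosperm RNA of B73 and Mo17 was measured on 3 arrays per line. The intensity values deposited by the authors are signals made with MAS5, as listed in the submitters' processing notes, 1 per probe set. Its version, scaling target and detection calls were not given in the sources used here. Control probe sets were left out, each array was scaled to the common mean left after trimming 2% from each end (361.3), 9.75 (the 20th percentile) was added, and log2 was taken. The dimmest 33.3% of 17621 probe sets were left out and 11747 tested with limma 3.58.1 in R 4.3.3 (moderated variances that follow the mean signal, Benjamini-Hochberg adjustment). Log2 differences are on the scale with the constant added, which understates the change of dim probe sets.

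GEO's platform annotation named 1 gene for 1452 probe sets, several for 1 and none for 16281. Of 1108 genes, 1060 matched the RefSeq table of Zm-B73-REFERENCE-NAM-5.0, used for names only. Families and marker lists came from these names and were chosen with earlier results of these data known. The genes ss1 (a symbol shared with a gene of another tissue), PPDK and MRP1 were left out of the marker sums. The embryo marker list did not hold glb3. In each family up to 3 called genes with the smallest adjusted p per direction were named; storage, starch, sucrose and transfer layer families could be named in full, as could the 6 largest differences per direction, genes with opposite calls and 2 unannotated probe sets per direction.

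Array numbers mark shared crossing dates in the labels, so they pair the samples. Deviations from the line means correlated at 0.298, 0.092 and 0.261 for arrays of the same date and at -0.264 to 0.0865 otherwise. The deviations within a line cancel over its arrays, so these values depend on each other and their contrast is partly built in. Alternatives covered scaling, the constant, the dim filter, the variance model, all 12 arrays, the date block and each array left out. Some genes are not reported here.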

Additional observations from a re-analysis of the deposited data

How the results depend on the processing

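Over all probe sets, 5730 were called, and 4688 to 6135 when each array was left out in turn. In those fits 2285 to 3217 were higher in B73, 2380 to 2918 were higher in Mo17, and 1887 to 2065 were at least 2-fold different. With crossing date as a replicate block 6446 were called, 5724 of them also called without it, and the block ended 0 calls of named genes. Testing only the 5874 brightest left 3228 called, 743 of them at least 2-fold, 1523 higher in B73 and 1705 in Mo17, since fewer were tested. Without scaling, 1427 were higher in B73, and the balance between the lines therefore rests on the scaling.

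Some genes that had not passed the test changed sign. In the values as deposited the log2 difference was -0.09 for SBEIIb, -0.08 for bt1, -0.10 for bt2, -0.00 for frk2, -0.04 for leg1, -0.12 for ohp2, -0.03 for pdc2, -0.01 for sh1 and -0.10 for z1C1_20. With quantile normalization it was -0.04 for SBEIIb, -0.03 for bt1, -0.05 for bt2, -0.07 for leg1, 0.02 for meg6, -0.04 for sh1, -0.09 for z1C1_20 and -0.00 for z1D_2. With each array left out in turn, it ran from -0.02 to 0.36 for frk2 and from -0.08 to 0.02 for meg6. Other probe sets of the same gene gave -0.72 for CDPK, -0.71 and -1.89 for IIG1, 3.00 for eIFiso-4E, 0.76 and 0.05 for expA4, 0.97 for gst31, -0.67 for gz27, -6.55 for pdc2, 0.51 for pdi11, and -2.51 and -0.84 for ubc7. The causes were not tested. With 3 arrays per line, differences near the standard error were not detectable, and dim probe sets had the largest errors.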
